A study of Rattus norvegicus with 64 samples.

Results

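The 10 genes described here are Fos, Fosb, Junb, Egr1, Arc, Npas4, Nr4a1, Nptx2, Bdnf and Homer1, genes whose transcription in neurons rises with electrical activity. They were taken by gene symbol from 32552 gene rows counted in the series, and each of the 10 symbols matched 1 row. All 10 had enough counts to be tested in each comparison. RNA was sequenced from the hippocampus and the cortex of 32 rats, which gave 64 libraries. The groups in each region were ApoE4 rats given doxorubicin, ApoE4 rats given PBS, ApoE3 rats given doxorubicin and ApoE3 rats given PBS, with 8 libraries each from 4 females and 4 males. Doxorubicin, an anthracycline used in chemotherapy, was dosed at 2 mg/kg per week for 4 weeks from an age of 5 weeks. Brains were taken 5 to 6 weeks after the last dose, so every value describes a late state and not the response to a dose. ApoE4 and ApoE3 are names of human alleles of apolipoprotein E, which carries lipids and bears on the risk of Alzheimer disease, and how the rats came to carry them is not given in the sources used here. The comparison of interest was the change after the drug in each region and genotype.

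Neurons hold these genes at a low level until calcium entry through synaptic receptors and channels activates kinases, which switch on factors already bound to their promoters, CREB at cyclic AMP response elements and SRF with its partners at CArG boxes. The first transcripts appear within minutes. Fos and Fosb pair with Junb to form AP-1, Egr1 is a zinc finger factor, Nr4a1 an orphan nuclear receptor and Npas4 a bHLH-PAS factor known for its narrow response to neuronal depolarization. Arc, Homer1, Nptx2 and Bdnf act at synapses, as a regulator of glutamate receptor removal, a scaffold of metabotropic glutamate receptors, a secreted pentraxin that clusters AMPA receptors and a neurotrophin. In hippocampus and cortex these transcripts are used as a record of recent activity, including that of handling and of the hours before death. The counts are per gene, so the short activity-induced form of Homer1, the truncated form of Fosb and the many first exons of Bdnf could not be separated from the rest of each gene.

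Promoter sequences are shown for 4 members because they carry the results below: Egr1, Junb and Nr4a1 varied together from rat to rat, whereas Nptx2 did not vary with them and was the member that passed a test by sex. They are the 250 bases before the annotated start, from RefSeq on build GRCr8, read along the gene, with the CRE core (TGACG or its reverse complement) and the CArG box in capitals. Egr1 lies at chr18:26736828-26737077 on the plus strand, Junb at chr19:40080876-40081125 on the plus strand, Nr4a1 at chr7:134259888-134260137 on the plus strand and Nptx2 at chr12:15162046-15162295 on the minus strand.
Egr1: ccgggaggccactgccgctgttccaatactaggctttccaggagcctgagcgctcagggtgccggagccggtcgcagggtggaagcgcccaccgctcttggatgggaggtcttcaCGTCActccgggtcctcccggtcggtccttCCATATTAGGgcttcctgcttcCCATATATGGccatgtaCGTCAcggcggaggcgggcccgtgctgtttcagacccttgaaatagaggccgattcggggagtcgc
Junb: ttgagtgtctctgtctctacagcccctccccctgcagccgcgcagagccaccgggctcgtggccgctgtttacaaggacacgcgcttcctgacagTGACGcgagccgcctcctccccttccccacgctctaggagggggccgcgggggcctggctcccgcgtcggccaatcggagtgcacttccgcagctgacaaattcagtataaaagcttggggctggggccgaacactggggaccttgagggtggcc
Nr4a1: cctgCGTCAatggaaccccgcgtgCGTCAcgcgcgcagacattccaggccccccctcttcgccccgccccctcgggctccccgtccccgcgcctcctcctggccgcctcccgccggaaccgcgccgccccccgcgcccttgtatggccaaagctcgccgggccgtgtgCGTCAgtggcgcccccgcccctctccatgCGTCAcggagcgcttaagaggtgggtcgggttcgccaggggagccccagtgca
Nptx2: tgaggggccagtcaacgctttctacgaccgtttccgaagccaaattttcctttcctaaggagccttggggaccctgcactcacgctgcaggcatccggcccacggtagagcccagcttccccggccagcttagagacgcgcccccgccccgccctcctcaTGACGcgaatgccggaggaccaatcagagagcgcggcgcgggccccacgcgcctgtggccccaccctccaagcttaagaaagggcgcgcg
Egr1 holds a pair of CArG boxes, CCATATTAGG and CCATATATGG, that begin 105 and 83 bases before the start, and 2 CRE cores that begin 135 and 66 bases before it. Nr4a1 holds 4 CRE cores, and Junb and Nptx2 hold 1 each, 155 and 90 bases before the start. In all, 8 of the 10 members matched 13 windows that run from 250 bases before to 50 bases after the start, of which Bdnf has 6. Fos and Arc matched no window, so no sequence can be shown for them. Fosb, which also varied with Fos (r = 0.85 in cortex and 0.59 in hippocampus), held no CRE core and no CArG box. Whether motif content goes with the shared variation was not tested. Motifs were searched on both strands. A CArG box was found in 1 of the 13 windows and in 1.64% of 33469 RefSeq windows, and the CRE core, which is also part of the full CRE, in 5 of 13 and in 21.2%. The full CRE (TGACGTCA) was found in 0 of 13 and 1.83%, the EGR site (GCGTGGGCG) in 0 of 13 and 0.544%, the AP-1 site (TGANTCA) in 1 of 13 and 7.33%, and TATAAA in 4 of 13 and 14.2%. These matches describe letters in the windows and no binding was measured.

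Depth ran from 10836181 to 20397553 counts per library, of which ERCC spike-ins took 0.932% to 2.44%. A member had between 29 counts, for Npas4, and 5196 counts, for Egr1, in a library, so Npas4 carries the most counting error. The hippocampal libraries matched their label by some markers of dentate granule cells. Prox1, a factor of these cells, ranged from 67.8 to 114 CPM (counts scaled to library size) in hippocampus, against 10.3 to 18.8 CPM in cortex. C1ql2 ranged from 63.2 to 134 CPM, against 2.78 to 8.39 CPM. The ranges of the dentate markers Trpc6 and Dsp overlapped between regions, as did those of the cornu ammonis markers Wfs1 and Ociad2. Ociad2 had the lower median in hippocampus, 21.8 CPM against 33.1 CPM. The genotype could not be checked in this way, since the rat Apoe row held 3.11 to 8.75 CPM and the ApoE3 donor row 1227 to 3137 CPM in rats of both genotypes. Rat numbers ran in blocks by genotype, sex and treatment, so a batch that followed the blocks cannot be told apart from those differences. The cortex library of female rat 58, an ApoE3 PBS rat, stood apart in 4 members. The members' tests by region and by genotype in cortex, the sex by treatment test and the correlations were repeated without it, while female against male, the spread, the likeness to Fos and the counts of the other gene lists are given with it alone.

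Region set the level of the members. In PBS rats, 9 of the 10 genes were lower in hippocampus than in cortex in both genotypes, and Bdnf was higher. Npas4 had the largest difference among the members, with log2 changes of -1.87 (SE 0.25) in ApoE4 and -1.60 (SE 0.23) in ApoE3 rats, hippocampus over cortex, 8 libraries each. All 10 passed at an edgeR adjusted p below 0.05 in both genotypes. The fit had no term for the rat, though both regions come from the same rats, and all 10 passed with the rat as a block too. Among all genes, 25.7% of those tested were called lower in hippocampus in ApoE4 rats and 23.6% in ApoE3 rats, while 24.7% and 27.5% were called higher, which makes 50.4% and 51% in either direction. DESeq2 called the 10 members in both genotypes too, beside 50.7% of all genes in ApoE4 and 50.9% in ApoE3.

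Among the transcription factors, Fos ranged from 5.69 to 28.8 CPM with a median of 11.5 CPM in the 32 hippocampal libraries, against 8.76 to 55.7 CPM with a median of 31.1 CPM in cortex. Its ranges overlap, yet each of the 32 rats had less Fos in its hippocampus than in its cortex. The log2 change in PBS rats was -1.20 (SE 0.29) in ApoE4 and -0.97 (SE 0.26) in ApoE3. Egr1 ranged from 66.2 to 142 CPM in hippocampus, against 127 to 347 CPM in cortex, with log2 changes of -1.32 (SE 0.13) and -1.20 (SE 0.15) in ApoE4 and ApoE3 PBS rats. Only the cortex of rat 58 and the cortex of ApoE4 PBS rat 1, at 132 CPM, reached into the hippocampal range of Egr1. Npas4 ranged from 2.02 to 11.4 CPM in hippocampus, against 11.3 to 35.9 CPM in cortex, and was lower in the hippocampus of 32 of 32 rats. Nr4a1 (-1.13 and -0.85), Fosb (-0.91 and -0.75) and Junb (-0.60 and -0.58) were lower as well in ApoE4 and ApoE3 PBS rats. Fosb and Nr4a1 were lower in the hippocampus of 32 of 32 rats and Junb in 31 of 32.

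Among the synaptic genes, Bdnf and Homer1 were the members whose ranges in the 2 regions did not overlap, and they lay on opposite sides. The share of all genes with ranges apart was not computed, so this is a description of the members alone. Bdnf ranged from 31.9 to 57.3 CPM in hippocampus, against 14.3 to 31.0 CPM in cortex, and was higher in the hippocampus of 32 of 32 rats. Its log2 change in PBS rats was 0.84 (SE 0.11) in ApoE4 and 0.88 (SE 0.09) in ApoE3. Homer1 ranged from 33.3 to 54.5 CPM in hippocampus, against 58.7 to 121 CPM in cortex, with log2 changes of -1.21 (SE 0.09) and -0.82 (SE 0.11) in ApoE4 and ApoE3. Arc ranged from 61.4 to 117 CPM in hippocampus, against 62.1 to 344 CPM in cortex, and was lower in hippocampus in 30 of 32 rats, with log2 changes of -1.19 (SE 0.20) and -0.96 (SE 0.20). Nptx2 differed by -0.62 (SE 0.08) and -0.72 (SE 0.11) and was lower in hippocampus in 31 of 32 rats. Without the cortex library of rat 58 the 10 members passed in ApoE3 as before. In bulk tissue, fewer cells of a type and less RNA per cell cannot be told apart.

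**Figure D1:**
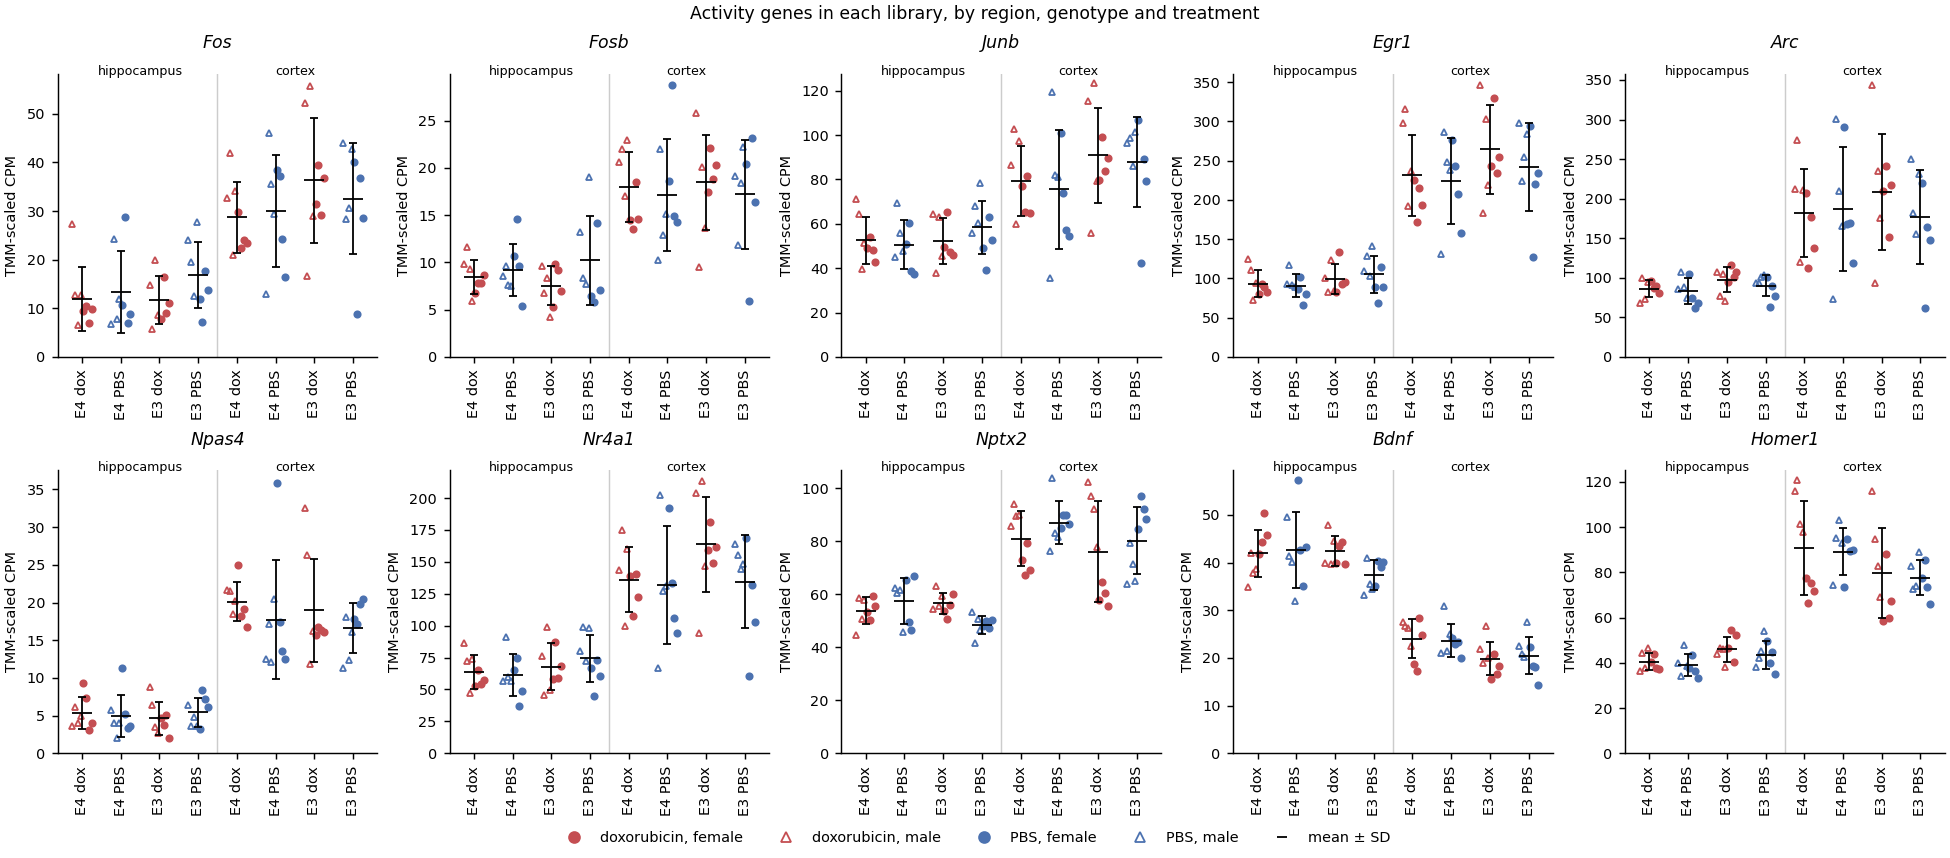
Each panel plots a member, with 1 point per library (filled circles female, open triangles male), TMM-scaled CPM on a linear axis from 0, and bars for the mean ± SD of 8 libraries. From left to right stand ApoE4 (E4) doxorubicin, ApoE4 PBS, ApoE3 (E3) doxorubicin and ApoE3 PBS, first in hippocampus and then in cortex. Bdnf is the member that stands higher in hippocampus, and the doxorubicin and PBS points of every pair overlap.

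Ordering the 8 groups by mean CPM gave 70 pairs of neighbours over the 10 members, and in 61 of them the gap was within the larger SD of the pair. For Fos, Fosb, Egr1, Arc, Npas4, Nr4a1, Bdnf and Homer1 the single gap beyond it separated the 4 groups of the regions. Fos averaged 11.7 ± 4.89 CPM in ApoE3 doxorubicin hippocampus, its lowest group, and 36.3 ± 12.9 CPM in ApoE3 doxorubicin cortex, its highest (SD, n = 8 each). Junb had no gap beyond the larger SD. For Nptx2 the single such gap lay between ApoE4 doxorubicin hippocampus at 53.8 ± 5.04 CPM and ApoE3 PBS hippocampus, the lowest group, at 48.4 ± 3.54 CPM.

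The other genes of the pathway were called in both directions by region, as were 24.7% higher and 25.7% lower of all genes in ApoE4 and 27.5% and 23.6% in ApoE3. Of 50 other rapid activity genes, 11 were called higher and 20 lower in hippocampus in ApoE4 PBS rats, and 11 and 19 in ApoE3. Dusp4, a MAP kinase phosphatase, was higher (log2 change 1.38, ApoE3), and Ier5 (-1.27) and Rgs2, a regulator of G protein signalling (-0.83), were lower. Of 26 delayed genes, 5 were called higher and 14 lower in ApoE4, and 5 and 13 in ApoE3. Scg2, a secretory granule protein, was higher by 1.30 and 1.27 in ApoE4 and ApoE3, and Rgs4 was lower by -3.00 and -2.46. Of 37 genes of upstream signalling, 17 were called higher and 11 lower in ApoE4, and 15 and 10 in ApoE3. Mef2c, an activity-regulated factor of cortical neurons, was lower by -2.67 and -2.45, and the kinase Camk4 by -1.79 and -1.62, in ApoE4 and ApoE3.

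Doxorubicin left no member past the threshold in any region or genotype by edgeR. In each of the 4 comparisons of 8 doxorubicin with 8 PBS libraries, 0 of 10 members were called, against 0% of all genes tested. Unadjusted p-values under 0.05 were found for 2 members in ApoE3 hippocampus and for 0 in ApoE4 hippocampus, ApoE4 cortex and ApoE3 cortex. The counts of genes with such a p were 1098 of 14873 in ApoE4 hippocampus, 1530 of 14899 in ApoE3 hippocampus, 1308 of 14838 in ApoE4 cortex and 1366 of 14775 in ApoE3 cortex. DESeq2 called 1 member, Nptx2 in ApoE3 hippocampus, beside 0.977% of all genes there. It called 0 members in the other comparisons, beside 0.00678% of all genes in ApoE4 hippocampus, 0.263% in ApoE4 cortex and 0.535% in ApoE3 cortex. For all 40 pairs of a member and a comparison, the doxorubicin and PBS ranges overlapped, and the share over all genes was not computed.

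In ApoE3 hippocampus, Nptx2 ranged from 50.7 to 63.2 CPM with a median of 55.7 CPM in doxorubicin rats, against 41.4 to 53.3 CPM with a median of 48.9 CPM in PBS rats. Of the 8 doxorubicin libraries 8 lay above the PBS median and 7 above the highest PBS library. The log2 change was 0.22 (SE 0.05), with an edgeR adjusted p of 0.170 and a DESeq2 adjusted p of 0.0201. Leaving out each library in turn gave edgeR adjusted p-values from 0.0844 to 0.387. The authors' deposited table gives Nptx2 a log2 change of 0.226 and an adjusted p of 0.0137.

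Bdnf in the same libraries ranged from 39.7 to 47.9 CPM with a median of 41.8 CPM in doxorubicin rats, against 33.2 to 41.1 CPM with a median of 37.4 CPM in PBS rats. Of the 8 doxorubicin libraries 8 lay above the PBS median and 4 above the highest PBS library. Its log2 change was 0.19 (SE 0.06), with an edgeR adjusted p of 0.230. The authors' deposited table gives it an adjusted p of 0.0881. Fos ranged from 5.69 to 19.9 CPM with a median of 10.0 CPM in doxorubicin rats, against 7.22 to 27.7 CPM with a median of 15.7 CPM in PBS rats, and the log2 change of -0.49 (SE 0.25) had an edgeR adjusted p of 0.531. Of the 8 doxorubicin libraries 6 lay below the PBS median of Fos. Markers of other cell types had unadjusted p-values under 0.05 in the same fit, and 0 of them were called. The 2 endothelial markers with counts kept, Vwf and Cdh5, summed to 58.7 to 102 CPM in doxorubicin rats, against 62.5 to 215 CPM in PBS rats. The 3 meningeal markers kept of 4 summed to 31.9 to 61.8 CPM in doxorubicin rats, against 40.2 to 215 CPM in PBS rats. The ranges overlap in both sums, and the 5 markers had a lower fitted level in doxorubicin rats. Of the 4 smooth muscle and pericyte markers 3 had such a p and 4 were lower, with a median log2 change of -1.39, and the sum was 83.7 to 159 CPM in doxorubicin rats, against 79.5 to 362 CPM in PBS rats. The 4 oligodendrocyte markers had such a p and were higher, with a median log2 change of 0.20, and summed to 5848 to 9598 CPM in doxorubicin rats, against 5536 to 7187 CPM in PBS rats. No kept marker of these lists was at 0 in hippocampus, and their part in the values of the members was not tested.

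In ApoE4 hippocampus, Nptx2 had the smallest p of the members and leaned the other way. It ranged from 44.8 to 59.4 CPM with a median of 54.5 CPM in doxorubicin rats, against 45.8 to 67.1 CPM with a median of 61.0 CPM in PBS rats, a log2 change of -0.10 (SE 0.09, edgeR adjusted p = 0.804). All 8 doxorubicin libraries lay below the PBS median and 7 within the PBS range. The difference between the genotypes, tested as ApoE4 effect minus ApoE3 effect in 32 libraries, was -0.32 (SE 0.10) for Nptx2 with an edgeR adjusted p of 0.477. By that test 0 of 10 members were called in hippocampus and 0 in cortex, against 0% of all genes in each. Unadjusted p-values under 0.05 came to 1 member and 1261 genes in hippocampus and to 0 members and 834 genes in cortex, and DESeq2 called 0 members, beside 0.013% of all genes in hippocampus and 0% in cortex. In cortex the members with the smallest p were Nptx2 in ApoE4 (-0.11, SE 0.06, edgeR adjusted p = 0.613) and Nr4a1 in ApoE3 (0.30, SE 0.16, edgeR adjusted p = 0.576). Npas4 in ApoE4 cortex ranged from 16.8 to 25.0 CPM with a median of 19.7 CPM in doxorubicin rats, against 12.1 to 35.9 CPM with a median of 15.4 CPM in PBS rats. All 8 doxorubicin libraries lay above the PBS median, and the highest library was a PBS one.

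**Figure D2:**
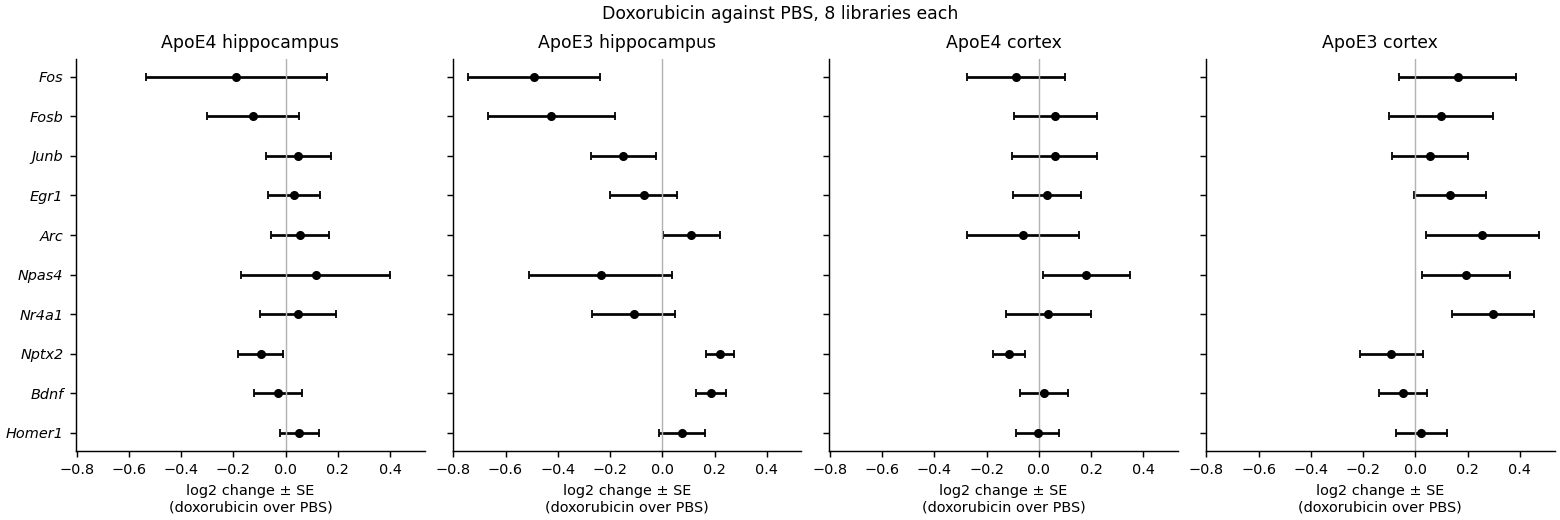
Points give the edgeR log2 change of doxorubicin over PBS for the 10 members and bars its SE, with 8 libraries in each arm and a line at 0. Nptx2 at 0.22 and Bdnf at 0.19 in ApoE3 hippocampus are the changes with the smallest p, and 0 of the 40 passed.

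The difference between the hippocampal and the cortical effect of the drug was tested in the 32 libraries of each genotype, with no term for the rat. In that fit 0 of 10 members were called in ApoE4 and in ApoE3, against 0% of all genes. With the rat as a block 0 of 10 were called in each as well. Beside them stood 4 genes called higher and 5 lower of 15428 in ApoE3 and 0 of 15432 in ApoE4. An unadjusted p under 0.05 was found for 0 members and 554 genes in ApoE4 and for 1 member and 1235 genes in ApoE3, and DESeq2 called 0 members, beside 0% of all genes in ApoE4 and 0.819% in ApoE3. Nptx2 in ApoE3 had a difference of 0.31 (SE 0.15, edgeR adjusted p = 0.618). Beside the members, 0 of 50 other rapid genes, 0 of 26 delayed genes and 0 of 37 upstream genes were called for doxorubicin in each of the 4 comparisons. In ApoE3 hippocampus, 33 of the 50 rapid genes had a negative log2 change, with a median of -0.04, against a median of 0.00 over all genes. Many of these genes vary together, so this count is a description with no test. The rapid genes of smallest p there were Ier3 (-0.73, SE 0.23), the endothelial factor Klf2 (-0.66, SE 0.23), Klf6 (-0.26, SE 0.09) and Dusp4 (0.19, SE 0.07). In ApoE4 hippocampus the delayed potassium channel gene Kcnf1 had a log2 change of 0.64 (SE 0.14, edgeR adjusted p = 0.641).

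Genotype did not separate the members in PBS rats at the threshold. By edgeR 0 of 10 were called for ApoE4 against ApoE3 in hippocampus, against 3.81% of all genes, and 0 of 10 in cortex, against 18.2%. Unadjusted p-values under 0.05 were found for 2 members in hippocampus and 1 in cortex, and DESeq2 called Nptx2 in hippocampus (adjusted p = 0.0336), beside 4.55% of all genes, and 0 members in cortex, beside 19.3%. Without the cortex library of rat 58 edgeR called 0 of 10 in cortex as well. Nptx2 in hippocampus ranged from 45.8 to 67.1 CPM in ApoE4 PBS rats, against 41.4 to 53.3 CPM in ApoE3 PBS rats. The log2 change was 0.24 (SE 0.07) with an edgeR adjusted p of 0.0620. Bdnf had the smallest p of the members in cortex, with a log2 change of 0.20 (SE 0.10) and an edgeR adjusted p of 0.148.

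Genes around the members were called by genotype, beside 18.2% of all genes in cortex and 3.81% in hippocampus. Of the 37 upstream genes, 8 were called higher and 1 lower in ApoE4 cortex, and 2 higher and 0 lower in ApoE4 hippocampus. Ntrk2, the receptor of the Bdnf protein, was higher in ApoE4 by 0.25 (SE 0.05, edgeR adjusted p = 0.000217) in cortex and by 0.15 (SE 0.04, edgeR adjusted p = 0.0353) in hippocampus. Mef2d was higher by 0.19 and 0.20 in cortex and hippocampus, and the histone deacetylase Hdac4 by 0.23 in cortex. Of the 50 rapid genes, 4 were called lower in cortex, among them Fosl1 (-0.48, SE 0.10) and Arl4d (-0.47, SE 0.10), and Arl4d was the 1 called lower in hippocampus (-0.63, SE 0.12). Of the 26 delayed genes, 3 were called higher and 3 lower in cortex and 1 higher and 2 lower in hippocampus, and Bmp3 was higher in both, by 0.49 and 0.53.

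Sex entered through Nptx2. In ApoE3 cortex its change between PBS and doxorubicin rats differed between females and males, by a log2 difference of -0.99 (SE 0.11, edgeR adjusted p = 5.81e-05, 16 libraries). It was the 1 member of 10 called, against 2.57% of all genes, and likewise by DESeq2, against 5.21%. Nptx2 stood at 57.7, 64.6, 60.6 and 55.7 CPM in the 4 doxorubicin females, against 84.4, 97.2, 92.2 and 88.5 CPM in the 4 PBS females. It stood at 102, 97.2, 92.3 and 78.0 CPM in the 4 doxorubicin males, against 63.9, 79.4, 71.3 and 64.9 CPM in the 4 PBS males. In females the treatments did not overlap, doxorubicin being low. In males the lowest doxorubicin library, rat 52, lay within the PBS range while the other 3 lay above it. Each of these 4 sets of 4 rats is its own run of rat numbers. A batch that followed the runs cannot be told apart from this difference. Leaving out each library in turn kept the difference between -1.07 and -0.94, with edgeR adjusted p-values from 3.43e-06 to 0.000382. The count of all genes called, 380 with every library, was less steady, at 125 without doxorubicin rat 65, 153 without PBS rat 58 and 699 without PBS rat 56. Without doxorubicin male rat 51, Npas4 was called beside Nptx2, with a difference of -0.99 (SE 0.24, edgeR adjusted p = 0.0359), against -0.79 (SE 0.29, edgeR adjusted p = 0.127) with that rat.

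Markers of striatal projection neurons moved with this result. Of the 4 markers Drd1, Drd2, Adora2a and Ppp1r1b, 3 were called, with differences of -2.27 (SE 0.39) for Drd2, -1.91 (SE 0.47) for Adora2a and -0.99 (SE 0.18) for Ppp1r1b, while Drd1 had -0.90 (SE 0.33, edgeR adjusted p = 0.124). Their summed level ran from 128 to 167 CPM in ApoE3 doxorubicin females, against 179 to 230 CPM in PBS females, and from 205 to 366 CPM in doxorubicin males, against 162 to 261 CPM in PBS males. None of the 4 was at 0 in a cortical library. With the log2 of the sum as a covariate, a fit chosen after the values were seen, the Nptx2 difference was -0.89 (SE 0.18, edgeR adjusted p = 0.0401). The SE of Nptx2 was 0.11 without the covariate. In that fit 38 genes were called in place of 380. The sum holds 3 markers called for this same term in the same libraries, so the fit cannot separate the sum from the tested term. The part of these markers in the result was not tested. The neuron markers Gad1 (-0.52, SE 0.12) and Gad2 (-0.56, SE 0.09), enzymes of GABA synthesis, were the 2 called of 6 neuron markers. Of 4 smooth muscle and pericyte markers 1 was called, Pdgfrb, which was higher (0.49, SE 0.13, edgeR adjusted p = 0.0401).

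In the same test, 8 of 26 delayed genes were called lower and 0 higher. Those of smallest p were Scg2 (-0.47, SE 0.10), the potassium channel Kcna1 (-0.64, SE 0.14), the vesicle protein Sv2c (-0.78, SE 0.17) and Sorcs3 (-0.60, SE 0.14). The called set also holds Tac1, Penk and Pdyn, neuropeptide genes that striatal projection neurons express. Of 37 upstream genes 2 were lower, Camk4 (-0.89, SE 0.13) and the glutamate receptor Grm5 (-0.50, SE 0.11), and Hdac5 was higher (0.36, SE 0.09). Of 50 rapid genes 0 were called by edgeR. An unadjusted p under 0.05 was found for 10 of these 50, for 2 of the 10 members and for 2885 of all 14775 genes, so the share of rapid genes lay near that of all genes.

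In ApoE4 cortex Nptx2 stood at 67.4 to 79.3 CPM in doxorubicin females, against 85.0 to 89.9 CPM in PBS females, and at 85.7 to 93.9 CPM in doxorubicin males, against 76.3 to 104 CPM in PBS males. The difference between the sexes was -0.34 (SE 0.10, edgeR adjusted p = 0.553), and whether it differs from that in ApoE3 was not tested. The striatal markers lay on the same side there, with differences of -1.18 for Drd2, -0.99 for Adora2a, -0.69 for Drd1 and -0.65 for Ppp1r1b, each with an unadjusted p under 0.05 and none called. Their sum was 125 to 384 CPM in the 8 doxorubicin rats, against 138 to 252 CPM in the 8 PBS rats. A fit with the sum as a covariate gave -0.33 for Nptx2 (SE 0.12) and -0.42 for Homer1 (SE 0.14), each with an edgeR adjusted p of 0.998. The part of the markers in the values of Nptx2 and Homer1 in ApoE4 was not tested. The member with the smallest p there was Homer1, at 66.5 to 77.3 CPM in doxorubicin females, against 73.4 to 94.8 CPM in PBS females, and at 97.8 to 121 CPM in doxorubicin males, against 74.2 to 103 CPM in PBS males. Its difference was -0.51 (SE 0.13, edgeR adjusted p = 0.380). Of 10 members 0 were called in ApoE4 cortex, against 0.00674% of all genes, with 3 members and 866 genes at an unadjusted p under 0.05. In hippocampus 0 were called in ApoE4, with 0 members and 519 genes at such a p, and 0 in ApoE3, with 1 member and 663 genes, against 0% of all genes in each. Arc had the smallest p in ApoE3 hippocampus (0.46, SE 0.19) and Fosb in ApoE4 hippocampus (-0.52, SE 0.34). DESeq2 called 0 members in these 3 comparisons, beside 0.121% of all genes in ApoE4 cortex, 0.00678% in ApoE4 hippocampus and 0% in ApoE3 hippocampus.

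**Figure D3:**
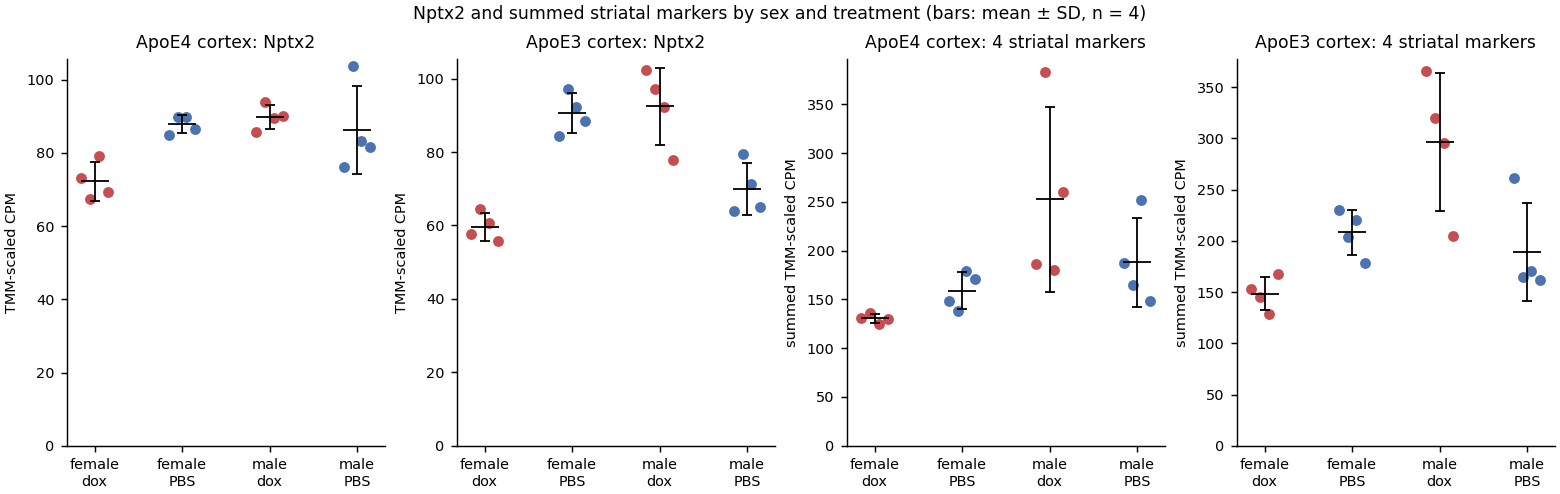
The left panels plot Nptx2 and the right panels the sum of the 4 striatal markers in cortex, as TMM-scaled CPM on linear axes from 0, with 1 point per library and bars for the mean ± SD of 4. In ApoE3, doxorubicin females sit at 55.7 to 64.6 CPM of Nptx2, below PBS females at 84.4 to 97.2 CPM, and their striatal sum is lower too.

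Averaged over treatment, no member passed for females against males by edgeR. The background was 0.121% in ApoE4 hippocampus, 0.0873% in ApoE3 hippocampus, 0.108% in ApoE4 cortex and 0.562% in ApoE3 cortex, with 0 of 10 members called in each. Unadjusted p-values under 0.05 were found for 1 member and 1597 genes in ApoE4 hippocampus, 0 members and 751 genes in ApoE3 hippocampus, 2 members and 1003 genes in ApoE4 cortex and 2 members and 2046 genes in ApoE3 cortex. Bdnf had the smallest p in ApoE4 hippocampus (0.20, SE 0.09) and in ApoE3 cortex (-0.31, SE 0.09, edgeR adjusted p = 0.126), where DESeq2 called it (adjusted p = 0.0464) beside 2.06% of all genes. In the other 3 comparisons DESeq2 called 0 members, beside 0.726% of all genes in ApoE4 hippocampus, 0.0943% in ApoE3 hippocampus and 0.148% in ApoE4 cortex. Fos had the smallest p in ApoE3 hippocampus (-0.44, SE 0.25) and Homer1 in ApoE4 cortex (-0.33, SE 0.08, edgeR adjusted p = 0.283). In ApoE4 cortex 9 of 10 members and 41 of 50 rapid genes had a lower fitted level in females, and in ApoE3 cortex 9 of 10 and 42 of 50. In hippocampus the counts were 6 of 10 and 41 of 50 in ApoE4 and 8 of 10 and 36 of 50 in ApoE3. Of all genes, 51.8% had a higher fitted level in females in ApoE4 cortex, 50.1% in ApoE3 cortex, 49.0% in ApoE4 hippocampus and 49.9% in ApoE3 hippocampus. Many members and rapid genes vary together from rat to rat, so a few rats can set the side of many genes. The counts by side are therefore not separate findings, and they were not tested.

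The spread between libraries of a group was wide for the members among genes of like level. The pooled SD of log2 CPM within the 8 groups was 0.63 for Fos, 0.51 for Npas4, 0.47 for Fosb, 0.45 for Arc, 0.40 for Nr4a1, 0.36 for Junb and 0.32 for Egr1. It was 0.22 for Homer1, 0.21 for Bdnf and 0.20 for Nptx2. Among genes whose mean log2 CPM lay within 0.5 of the member's, each member stood above the percentile 90, with Arc at 99.9 and Bdnf lowest at 91.6. Among all 15885 genes, low ones included, Fos stood at the percentile 91.7, while Homer1 stood at 63.3, Bdnf at 61.8 and Nptx2 at 59.6. Genes of like level to Fos had a median SD of 0.15. The SD of Arc was 0.25 in hippocampus and 0.58 in cortex, and that of Npas4 was 0.61 in hippocampus and 0.39 in cortex, differences that were not tested. The highest library of Arc was 1.90 times its lowest in hippocampus and 5.54 times in cortex.

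Doxorubicin did not change this spread past the threshold. The mean absolute deviation of log2 CPM from the group median was compared between 8 doxorubicin and 8 PBS libraries for each member in each region and genotype, by an exact two-sided permutation test that pools females and males. Of 40 tests 0 passed after Benjamini-Hochberg adjustment and 3 had an unadjusted p under 0.05. Homer1 in ApoE3 cortex had 0.29 in doxorubicin rats, against 0.11 in PBS rats (exact permutation p = 0.0106, adjusted p = 0.259). The doxorubicin females there averaged 68.5 ± 13.8 CPM and the males 90.7 ± 19.9 CPM (SD, n = 4 each). PBS females averaged 75.7 ± 8.17 CPM and PBS males 79.6 ± 7.80 CPM, so the deviation in doxorubicin rats also holds a gap between the sexes. Homer1 in ApoE4 cortex had 0.29 in doxorubicin rats, against 0.12 in PBS rats (exact permutation p = 0.0179, adjusted p = 0.259). In that group Homer1 averaged 72.7 ± 4.75 CPM in doxorubicin females and 109 ± 11.2 CPM in doxorubicin males (SD, n = 4 each), so the pooled deviation there holds the gap between the sexes. Npas4 in ApoE4 cortex had 0.14 in doxorubicin rats, against 0.38 in PBS rats (exact permutation p = 0.0194, adjusted p = 0.259).

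For 7 of the 10 members, part of the spread was shared by both regions of a rat. With group means removed, a rat's deviation in hippocampus correlated with that in its cortex for 7 of 10 members over 32 rats. The same correlation was not computed over all genes, so whether this count is particular to the members was not tested. Pearson's r was 0.73 for Fos and for Junb, 0.72 for Nr4a1, 0.64 for Arc, 0.62 for Egr1, 0.59 for Npas4 and 0.58 for Fosb, with permutation p-values adjusted over the 10 members from 3.33e-05 to 0.000586. The smallest raw permutation p, 1e-05, is the smallest that 100000 resamples can give. Spearman's rho for these ranged from 0.41 for Npas4 (adjusted permutation p = 0.0319) to 0.77 for Nr4a1. Of 32 rats, 26 lay on the same side of their group means in both regions for Fos and 26 for Nr4a1. Without the 2 rats farthest from the median in hippocampus, r was 0.78 for Fos and between 0.50 and 0.71 for Fosb, Junb, Egr1, Arc and Nr4a1. It was 0.36 for Npas4, whose relation leaned on those 2. The synaptic genes Nptx2 (r = 0.04, rho = 0.04, adjusted permutation p = 0.807), Bdnf (r = -0.24, rho = -0.34, adjusted permutation p = 0.231) and Homer1 (r = 0.20, rho = 0.18, adjusted permutation p = 0.308) did not pass. Within the 4 groups of 8 rats, r for Fos was 0.61 in ApoE4 doxorubicin, 0.66 in ApoE4 PBS, 0.93 in ApoE3 doxorubicin and 0.79 in ApoE3 PBS rats. It was 0.69 to 0.91 over the groups for Junb, 0.58 to 0.87 for Nr4a1, 0.43 to 0.89 for Arc and 0.36 to 0.78 for Egr1. For Fosb it was 0.19 in ApoE4 doxorubicin rats and for Npas4 0.0067 in ApoE3 PBS rats, values over 8 rats that were not tested group by group. Without rat 58 the same count, 7 of 10, passed, with r of 0.70 for Fos.

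**Figure D4:**
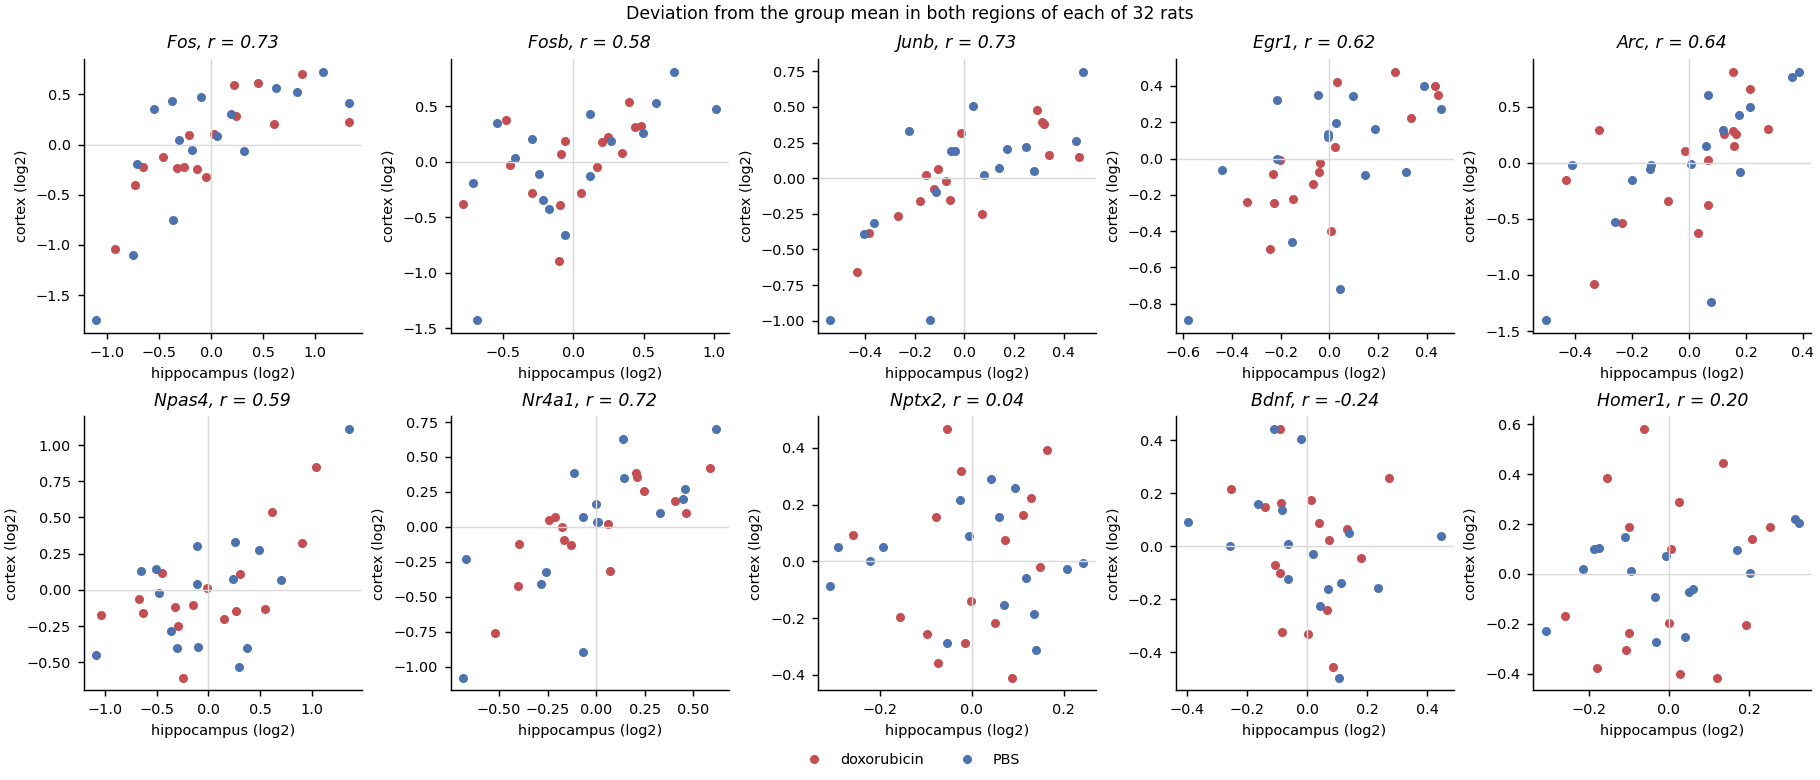
Each point is 1 of 32 rats, placed by its deviation from the group mean of log2 CPM in hippocampus (x) and in cortex (y), red for doxorubicin and blue for PBS, with r in the title. Fos, Junb and Nr4a1 rise together across the regions with r from 0.72 to 0.73, and Nptx2 at 0.04 and Bdnf at -0.24 do not.

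The members fell apart by whether they moved with Fos. In cortex Fos correlated with Junb (r = 0.94, rho = 0.91), Egr1 (0.94, rho = 0.91), Arc (0.94, rho = 0.91), Nr4a1 (0.93, rho = 0.89), Fosb (0.85, rho = 0.79) and Bdnf (0.46, rho = 0.54) over 32 rats. In hippocampus it correlated with Nr4a1 (0.88, rho = 0.89), Junb (0.84, rho = 0.82), Egr1 (0.84, rho = 0.82) and Fosb (0.59, rho = 0.57). These 10 of 18 relations had permutation p-values of r adjusted over the 18 from 2.25e-05 to 0.0147. Without the 2 rats farthest from the Fos median, their r lay between 0.55 and 0.89 in hippocampus and between 0.49 and 0.91 in cortex. Arc in hippocampus had r = 0.37 and rho = 0.40 (adjusted permutation p = 0.0578 for r and 0.0381 for rho), and without the 2 rats farthest from the Fos median r was 0.64, while without rat 58 it was 0.29. Homer1 in cortex had r = 0.25 and rho = 0.39 (adjusted permutation p = 0.212 for r and 0.0414 for rho). Npas4 had r = -0.04 with Fos in hippocampus and 0.12 in cortex, and Nptx2 had -0.33 and -0.0034, none of which passed. As a description with no test, Fos, Junb, Egr1 and Nr4a1 correlated with each other at 0.84 to 0.94 in hippocampus and 0.91 to 0.97 in cortex, all from the same libraries. Nptx2 went with Bdnf in hippocampus (r = 0.55) and with Homer1 in cortex (r = 0.60), also with no test.

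**Figure D5:**
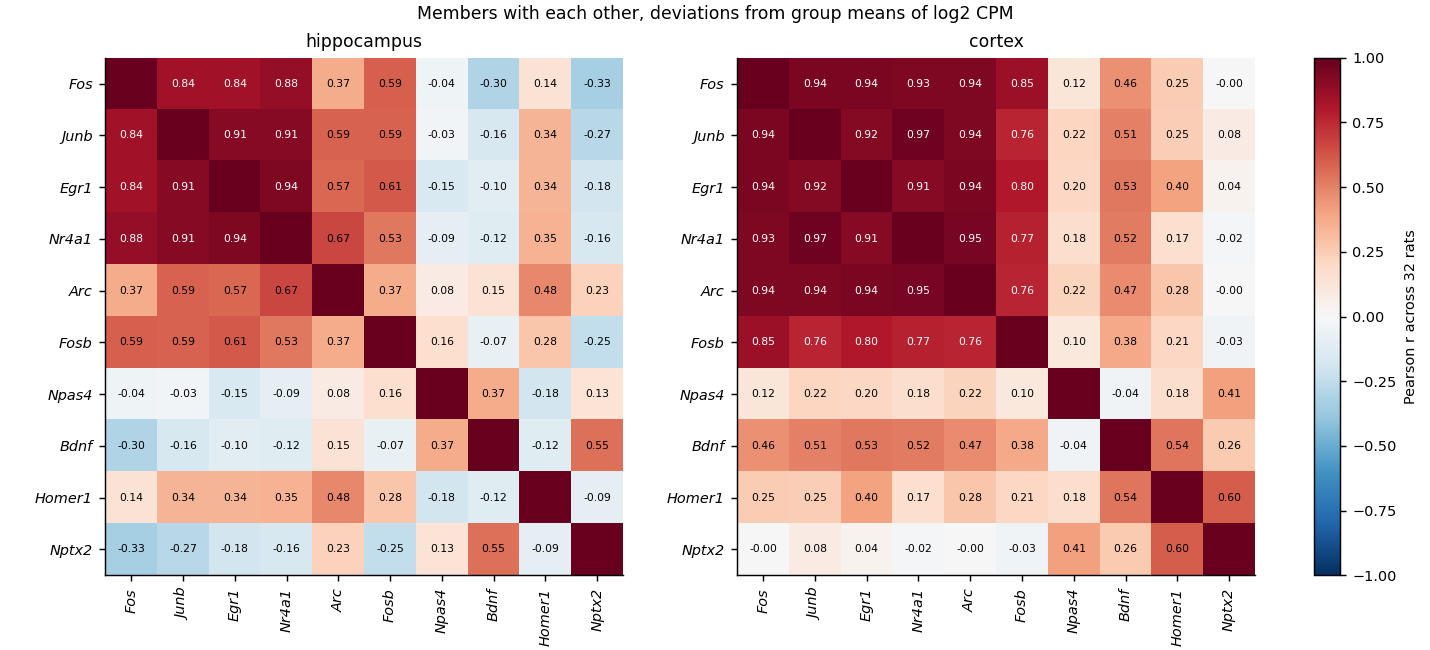
Colours and figures give Pearson's r between members across 32 rats, on deviations of log2 CPM from group means, with hippocampus left and cortex right. The block of Fos, Junb, Egr1 and Nr4a1 is at 0.84 or above in both regions, Arc joins it in cortex, and Npas4, Homer1 and Nptx2 stay outside.

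The 8 genes most like Fos outside the members, by the mean over both regions of Spearman's rho on the same deviations across 32 libraries of each, were Dusp1 (0.86), Sik1 (0.81), Klf4 (0.75), Egr2 (0.75), Ier2 (0.71), Atf3 (0.71), Klf2 (0.69) and Btg2 (0.68). All 8 are in the list of other rapid activity genes, whose 50 members had a median likeness of 0.50, against -0.0048 over all 12965 ranked genes, and 15 of the 20 most like Fos are in it. Dusp1, a phosphatase of MAP kinases, had rho of 0.87 in hippocampus and 0.85 in cortex. Egr2, a relative of Egr1, had 0.55 in hippocampus and 0.94 in cortex, and Klf4 0.83 and 0.67. On the same measure Nr4a1 had 0.89, Egr1 0.87, Junb 0.86, Fosb 0.68 and Arc 0.65, while Homer1 had 0.26, Bdnf 0.10, Npas4 0.09 and Nptx2 -0.07.

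The extremes of several members often fell to the same rat. Fos, Junb, Egr1 and Nr4a1 vary together, so the counts below are not separate findings. Rats other than those described next had like counts. Rat 45 was the highest of its group in 6 of 10 members in hippocampus and rat 47 in 6 in cortex. Rat 31 was the lowest of its group in 6 in cortex. Rat 58, an ApoE3 PBS female, was the lowest of its group in 6 of 10 members in hippocampus and in 6 of 10 in cortex, and the highest in 1 member in each. In its cortex Fos was at 8.76 CPM, against 28.3 CPM in the next library. Rat 1, an ApoE4 PBS male, was the lowest of its group in 1 of 10 members in hippocampus and in 7 in cortex, and rat 3 of the same group was the highest in 4 in hippocampus and in 7 in cortex. Rat 49, an ApoE3 doxorubicin male, was the lowest in 4 members in hippocampus, where it was also the highest in 2, and in 6 in cortex, and rat 11, an ApoE4 doxorubicin male, was the highest in 2 in hippocampus and in 7 in cortex.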

How the data were processed

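RNA was extracted with a column kit and libraries were made with a NEBNext Ultra II RNA kit, per the labels' protocols. STAR 2.5.2b and DESeq2 are named in the submitters' processing notes. The read counter, genome build and strand setting are not given in the sources used here. The deposited tables of the authors hold counts of reads per gene, 1 table per region and genotype. The authors' comparison tables hold a signal per library (counts divided by a size factor), a log2 fold change and a p-value with its adjusted value, as deposited. Of their values only those named in the text are used. Symbols come from those tables. Of the columns of samples, 0 were left unused.

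The 92 spike-in rows were left out. Counts were fitted with edgeR 4.0.16 (R 4.3.3): filterByExpr on the compared groups, TMM scaling, quasi-likelihood F-test, Benjamini-Hochberg over all tested genes, threshold 0.05, with called meaning below it. The SE is the absolute log2 change over the square root of F. Doxorubicin was fitted on 16 libraries with sex as a covariate, and genotype and region terms on 32. The region fits held sex but no term for the rat, and the rat as a block was an alternative. DESeq2 1.42.0, other size factors and no filter on low counts were alternatives, and the scripts were tested on simulated data. CPM are TMM-scaled over all 64 libraries (15885 genes kept), and log2 CPM carry a prior count of 1. Correlations and permutations used Python 3.11.15 and SciPy 1.17.1. Read depth and the number of rats set how precise a value can be.

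Both regions of a rat carry its number in the labels, so the number pairs hippocampus with cortex by animal, and the correlations of the members' deviations are in the report. Doxorubicin and PBS groups share no rat. The members and all gene lists were chosen with earlier results of these data known. A member is described where it was called or had the smallest p, and of other lists at most the 4 genes of smallest p are named. Fos in ApoE3 hippocampus, Npas4 in ApoE4 cortex, Tac1, Penk, Pdyn, Gad1, Gad2, Pdgfrb, the 4 striatal markers and the named rats were chosen after their values were seen.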

Additional observations from a re-analysis of the deposited data

Results flagged for a closer look

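Nptx2 in ApoE3 cortex changed between PBS and doxorubicin rats differently in females and males, by a log2 difference of -0.99 (edgeR adjusted p = 5.81e-05). With doxorubicin it had lower CPM than every PBS female in 4 of 4 females and higher CPM than every PBS male in 3 of 4 males. A batch that followed the runs of rat numbers cannot be told apart from this difference. The striatal marker sum moved with Nptx2, and with that sum as a covariate the difference was -0.89 (edgeR adjusted p = 0.0401). That fit cannot separate the sum from the tested term, since 3 of the 4 markers were called for the same term. The part of the sum in the result was not tested.

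Single libraries lay far from the rest of their group of 8 by the gap to the next library as a share of the group's range. This was looked for in 80 groups (10 members in 8 groups), and chance alone gives about 1 in 20. At that rate several of the 80 are expected by chance, and whether more were found was not tested. The rate presumes normally distributed values and separate groups. The values here are CPM, and Fos, Junb, Egr1 and Arc varied together in cortex. Their low values in rat 58 are therefore not separate findings, and the libraries below are given as a description. In ApoE3 PBS cortex, female rat 58 was lowest for Fos (8.76 CPM, group median 33.7, gap 0.727 of the range), Junb (42.5 CPM, median 93.0, gap 0.680), Egr1 (127 CPM, median 245, gap 0.649) and Arc (62.1 CPM, median 173, gap 0.622). The 4 choroid plexus markers summed to 791 CPM in that library, against a group median of 7.01 CPM, and the 6 neuron markers to 6126 CPM, against 5598 CPM. Their part in the low values was not tested. The hippocampus of rat 58 was also the lowest of its group for Fos, and there the choroid plexus sum was 6.89 CPM, the lowest of its 8 libraries.

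In ApoE4 doxorubicin hippocampus, male rat 10 was highest for Fos (27.2 CPM, median 10.2, gap 0.530). The same library had the highest sums of its group for endothelial markers (244 CPM, median 65.1), meningeal markers (338 CPM, median 48.2) and choroid plexus markers (2126 CPM, median 33.2) and the lowest sum of neuron markers (4716 CPM, median 5438), whose part was not tested. In ApoE3 doxorubicin cortex, male rat 49 was lowest for Nr4a1 (94.0 CPM, median 160, gap 0.542).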

How the results depend on the processing

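For 252 results 1048 values were recomputed, and 1021 were labelled the same. Of these values 884 were single ones, and 864 kept their direction and their side of the threshold. The rest were counts of members or tests, labelled the same where equal or of like size. The rat as a replicate block, which pairs hippocampus with cortex, left the count of members called at 10 by region in each genotype and at 0 for region by treatment in each, and gave -0.018 for Egr1 and -0.018 for Nr4a1 in region by treatment in ApoE4, in place of values just above 0. DESeq2 called 1 member for doxorubicin in ApoE3 hippocampus, 1 for female against male in ApoE3 cortex and 1 for genotype in PBS hippocampus, where edgeR called 0. Without a filter on low counts, sex by treatment gave 2 members in ApoE3 cortex (Npas4 added, adjusted p = 0.0262) and 1 in ApoE4 cortex (Homer1, 0.0305), female against male gave 1 in ApoE4 cortex (Homer1, 0.0118), and Egr1 in ApoE4 hippocampus turned to 0.0020 for sex by treatment. Leaving out each library gave 1 to 2 members for sex by treatment in ApoE3 cortex, 2 being without rat 51, and 0 throughout for doxorubicin. Directions also turned for Homer1 with the striatal sum as covariate (0.25, sex by treatment, ApoE3 cortex) and without the sex covariate (0.020, doxorubicin, ApoE4 cortex). Without the cortex of rat 58 they turned for Fosb (0.10, genotype by treatment, cortex) and for Arc (-0.031 by genotype in PBS cortex, 0.0073 for region by treatment in ApoE3). Among correlations, removing sex means turned Nptx2 between regions (-0.094), Fos with Npas4 in hippocampus (0.025) and Fos with Nptx2 in cortex (0.083), and took Fos with Arc in hippocampus past the threshold (r = 0.39, adjusted permutation p = 0.0414). Without rat 58, Fos with Npas4 was 0.030 and Fos with Nptx2 0.16. None of the values that turned passed its test, and the causes were not tested. At 29 counts in the library where it was lowest, Npas4 is the member whose differences low counts limit most.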

Other observations

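As a description with no test, Bdnf had r from -0.30 to 0.15 in hippocampus and from 0.38 to 0.53 in cortex with Fos, Fosb, Junb, Egr1, Arc and Nr4a1, over the same 32 rats. Nptx2 and Homer1 had r of -0.09 in hippocampus and 0.60 in cortex. Each set of values shares its libraries.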
